A study of Mus musculus with 16 samples.

Results

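Long intergenic noncoding RNAs (lincRNAs) that reach a measurable level in mouse colonic epithelium are described here. They were chosen by level, as the genes annotated lincRNA on chromosomes 1 to 19 with at least 2 FPKM (fragments scaled to gene length and to the size of the library) in at least 4 of 16 libraries. The rule found 97 genes of 4979 autosomal lincRNA genes and of 56268 genes in the table. Colonic epithelial cells were compared between mice labelled Rictor Flox; Villin-Cre (cKO) and mice labelled Villin-Cre (WT), each with DSS or without treatment. Villin-Cre expresses Cre recombinase in the intestinal epithelium and is carried by all 4 groups, so other cell types in a preparation keep Rictor. DSS is dextran sulfate sodium, which damages the colonic lining and was given at 3% in the drinking water to induce colitis. The groups cKO DSS, WT DSS, cKO water and WT water held 4 libraries each, and the labels give neither age, sex nor strain. Whether each library came from its own animal or from a pool is not stated, so the spread behind the p-values may be technical.

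A lincRNA is a spliced or unspliced transcript that lies between protein-coding genes and has no long conserved reading frame. Some are scaffolds of nuclear bodies, some carry small nucleolar RNAs or microRNAs in their introns or exons, and some mark the activity of the neighbouring promoter or enhancer. Most have no known function and only a clone or prediction name. Rictor defines mTOR complex 2, a kinase complex that phosphorylates AKT downstream of insulin and growth factor receptors.

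Libraries held 13911823 to 16414914 reads, recovered from FPKM and gene length, and mitochondrial genes took 4.74 to 15.1% of them. Rictor itself had 2.51 ± 0.46 FPKM in cKO DSS and 3.63 ± 0.57 FPKM in WT DSS libraries, and 2.47 ± 0.24 FPKM in cKO water and 2.80 ± 0.44 FPKM in WT water libraries (SD, n = 4 each), and passed the test in neither comparison (adjusted p = 0.0761 after DSS and 0.582 on water), so its summed level over the gene does not check the genotype labels. All 8 epithelial markers of a fixed list were found, with a summed level of 10051 to 11902 FPKM in cKO DSS, 7902 to 9581 FPKM in WT DSS, 7738 to 11833 FPKM in cKO water and 6677 to 9326 FPKM in WT water libraries. Summed fibroblast markers were at 5.51 to 7.26, 8.32 to 9.91, 3.19 to 4.04 and 2.14 to 3.65 FPKM in the same groups, and macrophage and dendritic cell markers at 7.23 to 11.3, 6.92 to 10.1, 4.65 to 7.21 and 4.11 to 6.22 FPKM. Neutrophil markers were at 40.0 to 76.7, 31.6 to 39.4, 38.4 to 63.3 and 46.8 to 58.5 FPKM. The sex markers also differed with treatment. Y-linked genes had 2681 to 4533 reads in every DSS library and 0 to 1856 reads in water libraries. Xist, the RNA that coats the inactive X chromosome of female cells, was at 0 to 0.0141 FPKM in cKO DSS and 0.00402 to 20.5 FPKM in WT DSS, against 44.7 to 105 FPKM in cKO water and 33.2 to 64.9 FPKM in WT water libraries. DSS and the sex of the mice can therefore not be told apart fully, and the counts of calls after DSS below are followed by those obtained with the Y-linked level as a covariate. Some libraries held both sex markers. WT water 1, 2 and 4 had 648 to 1377 Y-linked reads, and cKO water 1 and 2 had 635 and 1856, all beside Xist at 33.2 FPKM or more. The WT DSS library with Xist at 20.5 FPKM had at least 2681 Y-linked reads. Whether such libraries hold RNA of male and female animals together was not tested. In bulk RNA, fewer cells of a type and less RNA per cell cannot be told apart.

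The 97 lincRNAs were weakly expressed. Their mean level over the 16 libraries had a median of 2.71 FPKM, against 8.68 FPKM for the 9262 protein-coding genes that pass the same level rule, and 69 of the 97 were under 5 FPKM. Their median length was 1337 bases, against 4335 for those protein-coding genes, so a typical member rested on 71.9 reads per library and 39 members on fewer than 50. The within-group SD of log2(FPKM + 1) had a median of 0.279 for lincRNAs and 0.169 for protein-coding genes. Of the 97, 37 were at 2 FPKM or more in all 16 libraries and 72 would have passed without any 1 group. Gm12319 reached 2 FPKM in WT water libraries only, and 5 members did so in water libraries only. At the threshold, the fourth highest value was 2.04 FPKM for Gm32540 and 2.07 FPKM for both Gm38102 and Gm14321, just inside, and 1.96 FPKM for Gm26779, 1.96 FPKM for Gm11535 and 1.93 FPKM for C430042M11Rik, just outside.

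Names reflect how little is known of them, since 55 of the 97 carry a Gm prediction name, 26 a Rik clone name and 16 another name. Their median distance to the nearest protein-coding gene was 4626 bases, 6 overlapped one, and 7 lay more than 100 kb away. A total of 12 started within 1000 bases of a protein-coding start on the opposite strand, an arrangement called divergent or head-to-head. There were 9 pairs of members, made of 15 genes, within 100 kb of each other, among them Malat1 and Neat1 on chromosome 19 and 3 genes beside Irs2 on chromosome 8. The counting is not stated to use strand, so the 12 members that overlap another gene with at least 1 FPKM may share its reads.

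A few members stood far above the rest. Gm3054 had the highest mean at 186 FPKM but varied widely, at 88.8, 208, 294 and 275 FPKM in cKO DSS, 93.0, 107, 196 and 30.4 FPKM in WT DSS, 275, 227, 124 and 177 FPKM in cKO water and 239, 268, 208 and 170 FPKM in WT water libraries. It is an annotated transcript of 265 bases, and no genotype comparison separated its values. Next were AW112010 at a mean of 95.1 FPKM, a mouse transcript known from activated macrophages and interferon responses, and Malat1 at 83.9 FPKM, an abundant nuclear RNA of the splicing-speckle compartment. Below them, Gm53 at 27.3 FPKM, 2900097C17Rik at 22.9 FPKM, Oip5os1 (Cyrano, which holds a conserved site for miR-7) at 22.7 FPKM, Snhg18 at 21.3 FPKM and Gm33424 at 16.8 FPKM followed. 2900097C17Rik was the steadiest of these 8, with 19.05 to 25.3 FPKM over all 16 libraries and no call in any comparison. Gm33424 lies 35129 bases upstream of the start of Nfil3 on the opposite strand and had 39.1, 11.2, 30.1 and 31.2 FPKM in cKO DSS against 14.9, 11.1, 15.6 and 19.01 FPKM in WT DSS libraries, which overlap. Members together took 0.154 to 0.202% of reads in DSS libraries and 0.211 to 0.270% in water libraries, groups that do not overlap. Without Malat1, Gm3054 and AW112010 the shares were 0.115 to 0.138% and 0.137 to 0.162%, which overlap.

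On water, few lincRNAs differed between cKO and WT mice. Of the 97 members, 2 were called higher in cKO water than in WT water at an adjusted p under 0.05 (limma moderated test on log2(FPKM + 1), Benjamini-Hochberg over 13255 genes) and 0 lower, against a background of 0.0905% of all genes tested (0.0528% higher and 0.0377% lower). They were 3930402G23Rik and Gm29051. Both had 2 FPKM or more in cKO libraries only, so the level rule itself favoured members high in cKO and the count is a description. The median log2 fold change was 0.02 over members and 0.01 over all genes tested.

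3930402G23Rik lies on chromosome 8 from 10924427 to 10928696 (mm10, minus strand), 55985 bases past the end of Irs2, the gene of an adaptor that links insulin and IGF-1 receptors to PI3K. It had 3.01, 3.04, 3.87 and 3.40 FPKM in cKO water libraries, against 0.886, 0.546, 1.11 and 1.01 FPKM in WT water libraries. Every cKO value lay above every WT value, and the log2 fold change was 1.204 ± 0.12 (SE, adjusted p = 0.000375). After DSS the gap was 4.59, 3.12, 4.35 and 4.14 FPKM in cKO DSS against 0.347, 0.503, 0.625 and 0.518 FPKM in WT DSS, again without overlap, with a log2 fold change of 1.75 ± 0.12 (adjusted p = 4.49e-06). In recovered reads the ratio was 3.73 on water (95% counting interval 3.16 to 4.43, 639 reads against 180) and 8.04 after DSS (6.50 to 10.1, 834 against 95). Counting intervals here sum the reads of a group and leave out the spread between its libraries. The ratio is larger than the fitted change because adding 1 FPKM shrinks the change of low genes. The call held in all 30 alternative settings in both comparisons. 3930402G23Rik reached 2 FPKM in cKO libraries only, so the level rule favoured this direction and both differences are a description. The 300 bases around the RefSeq start of this gene are shown (GRCm38.p6, chr8:10928408-10928707, minus strand, 5′ to 3′). That start lies 239 bases inside the gene end in the table. The gene was chosen because it had the smallest p of any member in both genotype comparisons. Capitals mark the 50 bases from the start onwards.
3930402G23Rik: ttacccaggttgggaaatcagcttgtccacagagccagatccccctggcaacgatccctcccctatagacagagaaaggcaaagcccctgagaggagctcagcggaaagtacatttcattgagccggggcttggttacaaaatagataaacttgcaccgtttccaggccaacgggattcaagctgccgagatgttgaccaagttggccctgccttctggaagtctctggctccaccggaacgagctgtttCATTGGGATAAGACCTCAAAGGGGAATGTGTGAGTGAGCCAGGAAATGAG
This stretch held no match, on either strand, to the ISRE consensus of interferon-stimulated genes (in 3.44% of all 32851 RefSeq promoters of this length), a GAS element (TTCNNNGAA, 8.30%), an E-box (CACGTG, 7.15%), a D-box (TTATGNAA, 3.39%), a TATA box (TATAAA, 13.6%) or the FOXO core GTAAACA (3.65%), the last chosen after the values were seen. No match says only that these letters are not in this window.

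Other transcripts beside Irs2 had higher values in the same libraries. The window from 200 kb below Irs2 to 50 kb above it, in chromosome coordinates, holds 12 annotated genes, and 5 of them passed the filter of 1 FPKM in at least 4 libraries. Gm44955, a member 14629 bases from 3930402G23Rik, had 6.46 ± 1.82 FPKM in cKO DSS and 2.01 ± 1.72 FPKM in WT DSS libraries, with no overlap, but its log2 fold change of 1.52 ± 0.47 did not pass (adjusted p = 0.0865). It is 229 bases long and rested on 92 reads in the cKO DSS group and 26 in the WT DSS group. Gm32540, a member on the far side of 3930402G23Rik and the one nearest the level threshold, had 1.83 ± 0.26 FPKM in cKO DSS and 0.897 ± 0.351 FPKM in WT DSS libraries (log2 fold change 0.59 ± 0.19, adjusted p = 0.0995). Gm45042, a processed pseudogene and no member, was called in both comparisons, at 11.3 ± 4.1 FPKM in cKO DSS and 2.48 ± 1.45 FPKM in WT DSS (adjusted p = 0.00305) and at 9.44 ± 0.85 FPKM in cKO water and 2.73 ± 1.18 FPKM in WT water (adjusted p = 0.0469). As a processed copy it may share reads with its parent gene. Irs2 rose in the cKO after DSS, at 18.2 ± 1.8 FPKM in cKO DSS and 9.25 ± 0.72 FPKM in WT DSS (log2 fold change 0.90 ± 0.14, adjusted p = 0.00399). On water Irs2 was at 12.9 ± 1.4 FPKM in cKO and 9.06 ± 2.41 FPKM in WT and did not pass (log2 fold change 0.49 ± 0.14, adjusted p = 0.130).

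**Figure D1:**
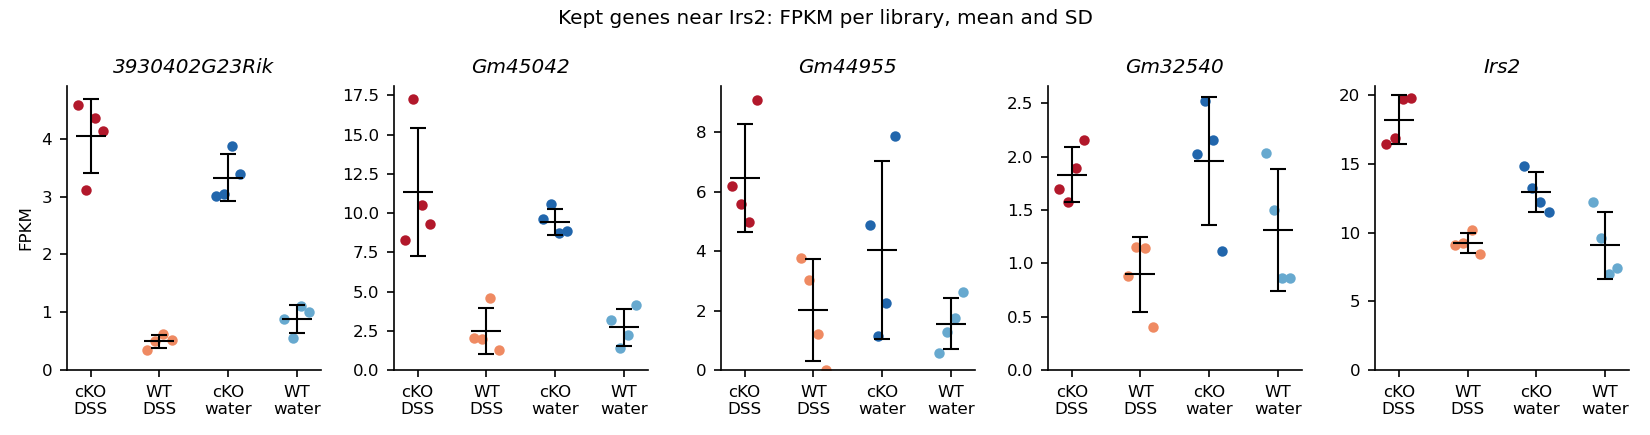
FPKM of the 5 kept genes beside Irs2 in each library (points), with mean and SD (bars, n = 4), by group from cKO DSS to WT water. All 8 cKO points of 3930402G23Rik lie at 3.01 FPKM or above and all 8 WT points at 1.11 FPKM or below, while Gm44955 and Gm32540 overlap between genotypes on water.

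**Figure D2:**
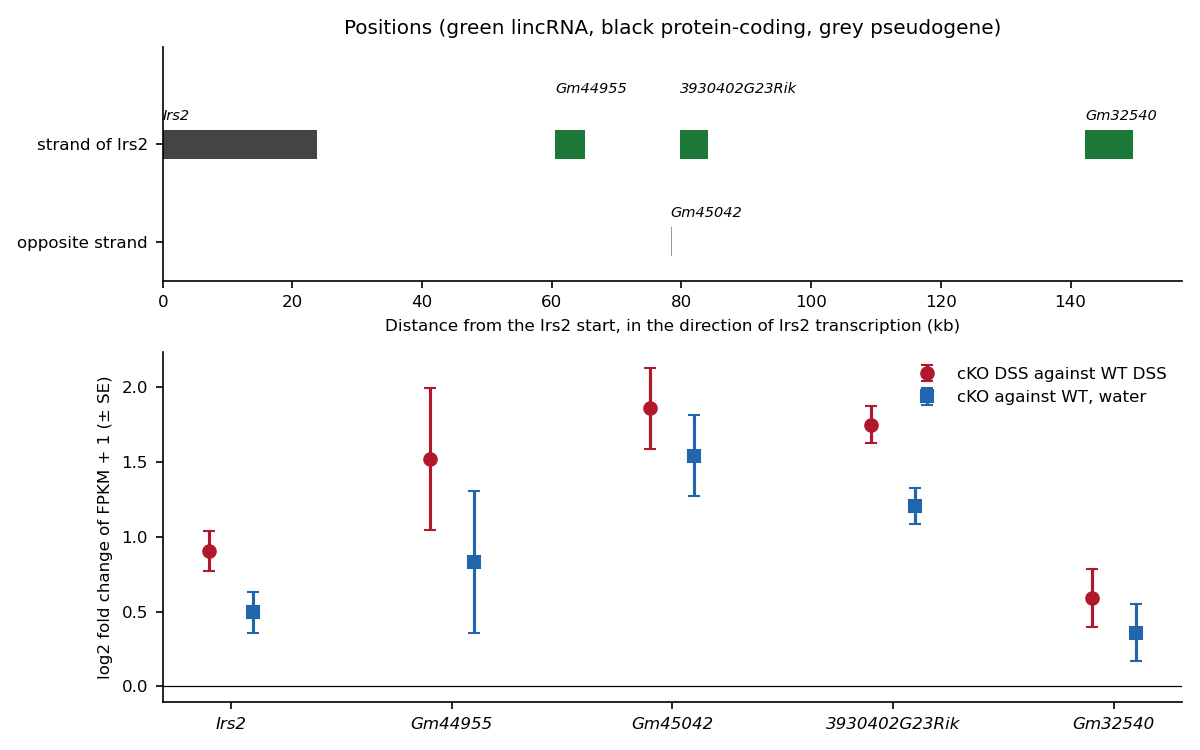
Top, extent of the same genes as distance in kb from the Irs2 start in the direction of its transcription, on its strand or the opposite strand. Bottom, log2 fold change (± SE) of FPKM + 1 for cKO DSS against WT DSS (circles) and cKO against WT on water (squares). All 5 genes have positive values in both comparisons, and 3930402G23Rik and Gm45042 are called in both.

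Gm29051, on chromosome 17 from 60001418 to 60130875, was at 0.635 FPKM or below in every WT library. It had 2.92, 1.56, 2.58 and 2.39 FPKM in cKO DSS libraries, against 0.391 FPKM in WT DSS 1 and 0 reads in the other WT DSS libraries. On water it had 1.60, 2.49, 1.79 and 1.17 FPKM in cKO and 0, 0.635, 0.363 and 0 FPKM in WT libraries. The values never overlapped between genotypes. The counts were low, with 54 reads in the cKO DSS group against 2 in the WT DSS group (ratio 24.7, 95% counting interval 6.52 to 209), and 38 reads in cKO water against 6 in WT water (ratio 6.65, interval 2.79 to 19.3). The fitted log2 fold change was 1.61 ± 0.20 after DSS (adjusted p = 0.000953, kept in all 30 alternatives) and 1.16 ± 0.20 on water (adjusted p = 0.0469, lost in 23 of 30). Gm29051 would not have passed the level rule without the cKO DSS or without the cKO water libraries, so both differences are a description. No function is known for it, and no protein-coding gene lies within 100 kb.

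After DSS, 5 members differed by genotype, and they include AW112010, the member with the largest rise after DSS in WT mice. In cKO DSS against WT DSS 3 members were called higher and 2 lower, where the background was 3.7% of all genes tested (2.03% higher and 1.67% lower). The higher ones were 3930402G23Rik, Gm29051 and 1700016G22Rik, and the lower ones Snhg6 and AW112010. The 3 higher members reached 2 FPKM in cKO libraries only, so the level rule favoured this direction and the higher count is a description. Among the 80 members that would have passed with either of these groups left out on its own, 1 was higher and 2 lower. Leaving out both together was not counted. The higher one, 3930402G23Rik, reached 2 FPKM in cKO libraries only. The median log2 fold change was -0.08 over members and -0.01 over all genes tested.

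1700016G22Rik starts 3390 bases from the start of Klf6, a zinc-finger transcription factor induced by injury, and is transcribed away from it. It had 2.83, 2.94, 4.20 and 4.43 FPKM in cKO DSS, against 0.974, 0.658, 1.03 and 1.67 FPKM in WT DSS libraries, a log2 fold change of 1.15 ± 0.22 (adjusted p = 0.0159) with no overlap. The call was lost without cKO DSS 3, cKO DSS 4 or WT DSS 2. 1700016G22Rik would not have passed the level rule without the cKO DSS libraries, so its rise there is a description. On water it had 1.86, 2.57, 2.98 and 1.26 FPKM in cKO and 1.08, 0.712, 1.72 and 0.362 FPKM in WT libraries, which overlap (0.70 ± 0.22, adjusted p = 0.165). Klf6 was at 109 ± 6 FPKM in cKO DSS and 87.4 ± 11.4 FPKM in WT DSS libraries and was not called (log2 fold change 0.32 ± 0.10, adjusted p = 0.0969).

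AW112010 had 115, 120, 90.9 and 78.9 FPKM in cKO DSS against 165, 164, 143 and 182 FPKM in WT DSS libraries. All cKO DSS values lay below all WT DSS values, with a log2 fold change of -0.70 ± 0.17 (adjusted p = 0.0374). On water the genotypes overlapped, at 41.5 to 72.8 FPKM in cKO and 52.8 to 64.2 FPKM in WT (log2 fold change -0.10 ± 0.17). Snhg6, host of a small nucleolar RNA that guides ribosomal RNA modification, had 6.71, 4.63, 3.38 and 3.03 FPKM in cKO DSS against 6.73, 7.65, 7.12 and 12.8 FPKM in WT DSS libraries (log2 fold change -0.82 ± 0.19, adjusted p = 0.0321). The groups of Snhg6 come close without overlap, at 6.71 FPKM for the highest cKO DSS value and 6.73 FPKM for the lowest WT DSS value. Without WT DSS 4 the calls of both AW112010 and Snhg6 were lost, and so they were without cKO DSS 3, cKO DSS 4 or WT DSS 2. That of AW112010 was also lost without WT DSS 1. In all, the call of AW112010 was lost in 11 of 31 alternatives, among them no filter, the replicate block and the fit on the 8 libraries compared, and that of Snhg6 in 8 of 31, among them no filter and the 8-library fit.

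**Figure D3:**
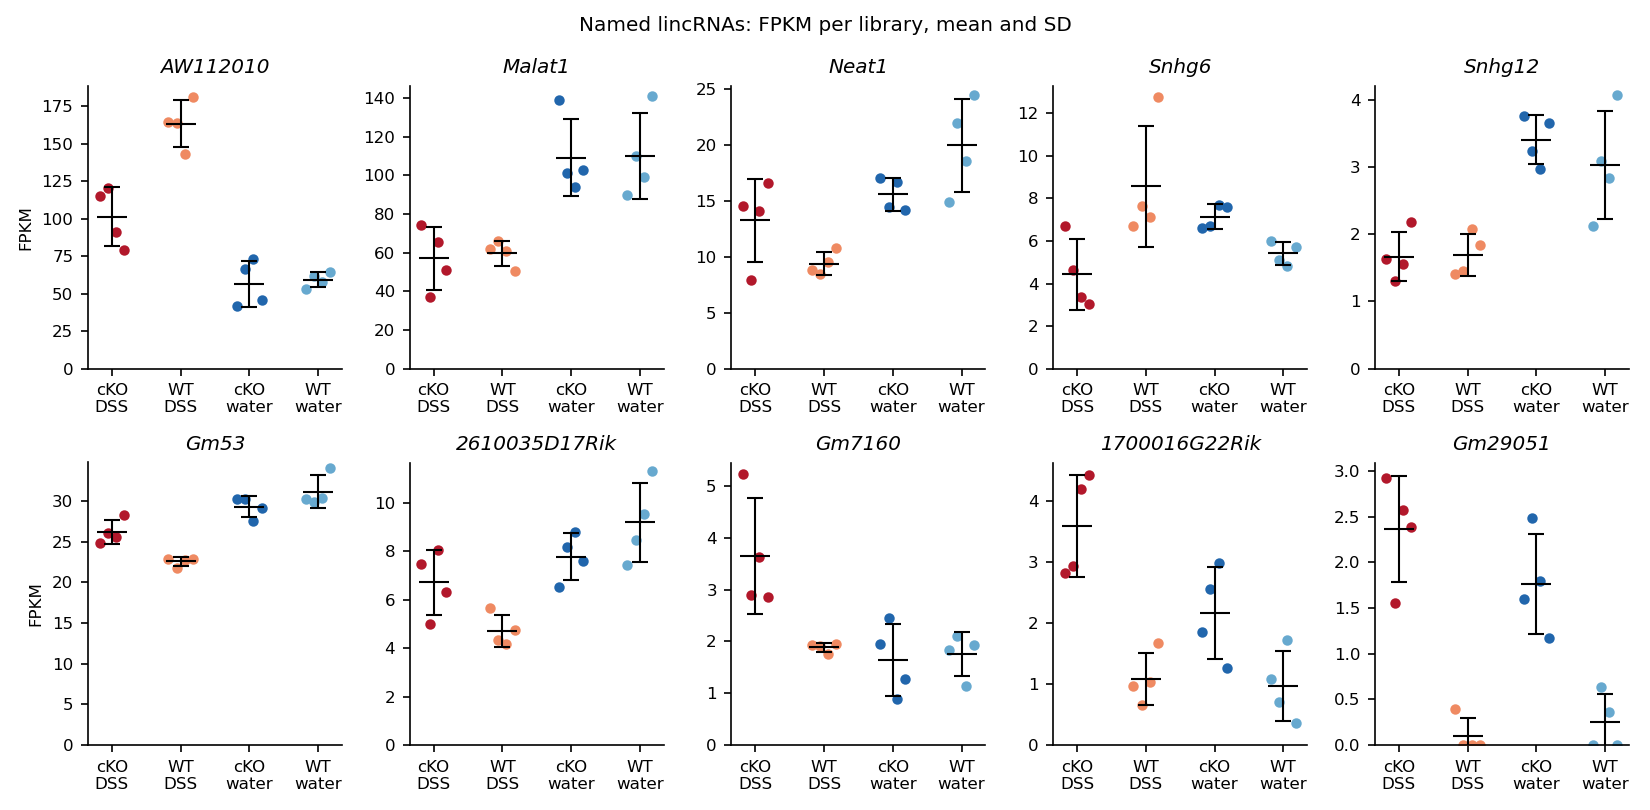
FPKM of 10 named lincRNAs in each library (points) with mean and SD (bars, n = 4), by group from cKO DSS to WT water. AW112010 is highest in WT DSS at 143 to 182 FPKM, Malat1 is lower in both DSS groups than in both water groups, and Gm29051 has 0 reads in 3 of the 4 WT DSS libraries.

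In WT mice more lincRNAs were lower after DSS than higher. In WT DSS against WT water 18 members were called lower and 7 higher, 25 of the 97, where the background was 28.5% of all genes tested (13.5% lower and 15.0% higher). Among the 78 members that would have passed the level rule with either of these groups left out on its own, 15 were lower and 6 higher. The median log2 fold change was -0.14 over members and -0.01 over all genes tested. The direction was not particular to lincRNAs. Of 170 autosomal antisense and processed transcript genes that pass the same level rule, 33 were called lower and 8 higher, with a median of -0.15. Called members made up 9 of 13 with a mean of at least 10 FPKM and 10 of 69 under 5 FPKM. The share of all genes called at each level was not counted. At a filter of 5 FPKM, 15 of 34 members and 3051 of 7723 genes were called. With the Y-linked level as a covariate 863 of all 13255 genes tested were called. Of the members 8 were called, and 7 of these were among the 25. The 7 were AW112010, Gm53, 2610035D17Rik, AI480526, Neat1, Malat1 and Gm9926. Of the 8, 7 were lower and 1 higher. Without WT DSS 4 the calls were 15 lower and 1 higher, without WT 3 they were 16 and 1, without WT DSS 1 they were 15 and 2, and without WT DSS 2 they were 15 and 3. These fits called 2563, 2498, 2240 and 2446 of all genes tested, in the same order. Quantile normalization and the gene length correction each gave 17 lower and 11 higher, and the GC correction 22 and 3. Over all genes these called 3707, 3571 and 2578.

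Both nuclear-body RNAs were lower after DSS in WT mice. Malat1 had 61.7, 65.9, 60.7 and 50.6 FPKM in WT DSS against 89.9, 110, 99.1 and 141 FPKM in WT water libraries (log2 fold change -0.86 ± 0.19, adjusted p = 0.00674). Neat1, the scaffold of paraspeckles, had 8.76, 8.45, 9.50 and 10.8 FPKM in WT DSS against 14.8, 21.97, 18.5 and 24.4 FPKM in WT water libraries (-0.996 ± 0.18, adjusted p = 0.00233). Neither pair of groups overlapped, and both calls held in all 31 alternatives.

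Gm53, 6589 bases upstream of Hoxb9 in the cluster that patterns the posterior gut, had 22.9, 21.8, 22.8 and 22.8 FPKM in WT DSS against 30.3, 29.8, 30.4 and 34.1 FPKM in WT water libraries (log2 fold change -0.45 ± 0.07, adjusted p = 0.000737). 2610035D17Rik, which lies 43015 bases from Slc39a11 on chromosome 11, fell to 4.72 ± 0.66 FPKM in WT DSS against 9.19 ± 1.65 FPKM in WT water (-0.83 ± 0.14, adjusted p = 0.00156). AI480526, which is divergent from Setd1b and overlaps other transcripts on the opposite strand, had 1.77, 1.59, 2.06 and 1.57 FPKM in WT DSS against 3.17, 3.56, 3.30 and 3.73 FPKM in WT water libraries (-0.69 ± 0.12, adjusted p = 0.00172). Gm28875, Gm10384 and Gm12319 also fell, by 0.61, 0.91 and 0.996 on the log2 scale (adjusted p = 0.00321, 0.00538 and 0.00672). The calls of these 3 were lost with the Y-linked covariate. Gm12319 passed the level rule through WT water libraries alone, and Gm10384 and Gm12860 through water libraries alone. The other 10 that fell were Gm3054, Epb41l4aos, Gm42047, Gm26532, Gm9926, 5031425E22Rik, 9130209A04Rik, Snhg12, Gm34084 and Gm12860, with log2 fold changes of -1.30 for Gm3054 to -0.30 for Gm9926. The groups of Gm3054 overlap and its call was lost in 23 of 31 alternatives, that of 9130209A04Rik in 9 of 30, and those of the other 8 in 1 to 6.

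AW112010 was the largest rise among the 7. It had 165, 164, 143 and 182 FPKM in WT DSS against 52.8, 61.6, 58.0 and 64.2 FPKM in WT water libraries, a log2 fold change of 1.45 ± 0.17 (adjusted p = 0.000126) that held in all 31 alternatives. Macrophage and dendritic cell markers were at 6.92 to 10.1 FPKM in WT DSS and 4.11 to 6.22 FPKM in WT water libraries, with 2 called higher and 1 lower. T cell markers were at 13.7 to 16.8 FPKM and 12.0 to 14.05 FPKM. Neutrophil markers went the other way, at 31.6 to 39.4 FPKM in WT DSS and 46.8 to 58.5 FPKM in WT water libraries. Their part in the result was not tested. The other 6 were 9130016M20Rik, Snhg6, Gm38910, 4732465J04Rik, Oip5os1 and Gm37494, with log2 fold changes of 0.35 to 0.67, and their calls were lost in 6 to 21 of the alternatives tried.

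In cKO mice, too, more members were lower after DSS than higher. In cKO DSS against cKO water 16 members were called lower and 4 higher, 20 of the 97, where the background was 14.7% of all genes tested (6.64% lower and 8.07% higher). Among the 76 members that would have passed with either group left out on its own, 14 were lower and 3 higher. The median log2 fold change was -0.17 over members and -0.01 over all genes. Of the 170 antisense and processed transcript genes under the same level rule, 22 were called lower and 8 higher, with a median of -0.08. With the Y-linked level as a covariate 1 member was called, Gm9926, where 299 of all 13255 genes tested were called. Without cKO 3 the count was 11, and it was 13 without cKO 2 or without cKO DSS 4. These fits called 1382, 1448 and 1513 of all genes tested, in the same order.

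The smallest p belonged to Snhg12, another small nucleolar RNA host, with 1.63, 1.30, 1.56 and 2.18 FPKM in cKO DSS against 3.76, 3.25, 2.97 and 3.65 FPKM in cKO water libraries (log2 fold change -0.73 ± 0.14, adjusted p = 0.00369). 1700001L05Rik had 1.60, 1.29, 1.45 and 1.23 FPKM in cKO DSS against 3.04, 3.05, 2.75 and 2.88 FPKM in cKO water libraries (-0.72 ± 0.14, adjusted p = 0.00397). Both sets of values were well apart. Malat1 had 74.1, 37.2, 65.6 and 51.2 FPKM in cKO DSS against 139, 101.2, 93.9 and 103 FPKM in cKO water libraries (-0.95 ± 0.19, adjusted p = 0.00472). Gm15706 and Epb41l4aos fell by 0.72 and 0.89 on the log2 scale (adjusted p = 0.00702 and 0.0103).

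Among the rises, AW112010 had 115, 120, 90.9 and 78.9 FPKM in cKO DSS against 41.5, 66.3, 72.8 and 45.7 FPKM in cKO water libraries (log2 fold change 0.85 ± 0.17, adjusted p = 0.00466). 4732465J04Rik had 4.15, 3.85, 4.302 and 4.13 FPKM in cKO DSS against 1.88, 2.56, 1.80 and 2.53 FPKM in cKO water libraries (0.69 ± 0.16, adjusted p = 0.00940). Gm7160 had 5.24, 2.89, 3.63 and 2.85 FPKM in cKO DSS against 1.94, 2.45, 0.882 and 1.27 FPKM in cKO water libraries (0.83 ± 0.19, adjusted p = 0.00902). The groups of these 3 did not overlap. Gm7160 would not have passed the level rule without the cKO DSS libraries, so its rise there is a description. Gm38910 was the other rise. Gm49980 fell by 1.90 on the log2 scale (SE 0.58, adjusted p = 0.0395), but its cKO water values were 5.87, 7.70, 32.1 and 28.7 FPKM and overlap the cKO DSS values of 2.45, 0.487, 8.15 and 5.49 FPKM. Gm28901, Gm9926, 1810044D09Rik, 9130209A04Rik, BC002059, Gm10384 and Gm34084 fell as well, with log2 fold changes of -1.01 for 1810044D09Rik to -0.39 for Gm9926. Their calls were lost in 24 of 30 alternatives for 9130209A04Rik, 17 of 30 for BC002059, 14 of 31 for Gm28901, 8 of 30 for 1810044D09Rik and 2 to 6 for the other 3. Over the 5 comparisons, 60 of the 97 members were called in none.

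**Figure D4:**
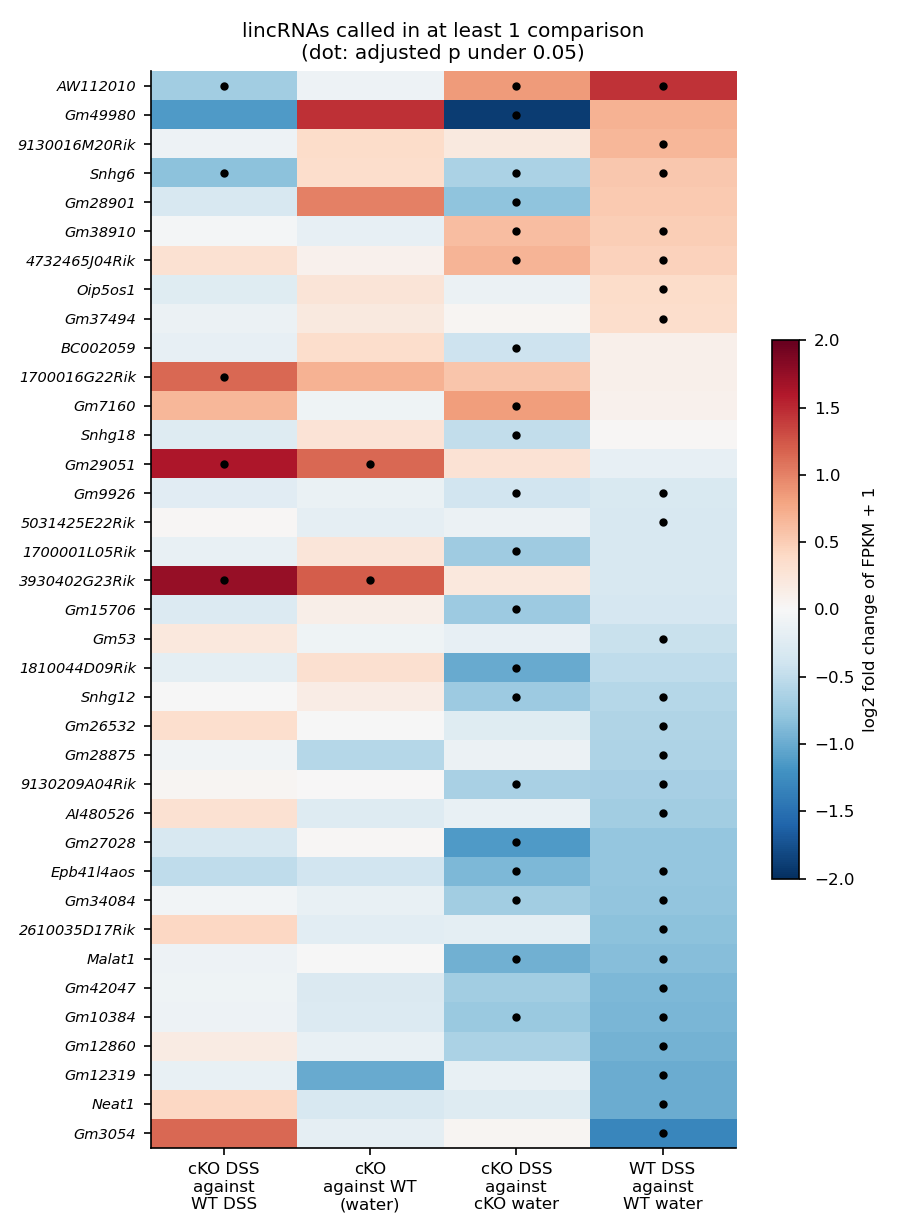
Log2 fold change of FPKM + 1 (colour, red higher and blue lower in the first-named group) of the 37 lincRNAs called in at least 1 comparison, ordered by the change in WT DSS against WT water, with a dot where the adjusted p is under 0.05. The genotype columns hold few dots and the DSS columns 25 in WT and 20 in cKO, most of them blue.

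A total of 11 members were called in both DSS comparisons, 44% of the 25 in WT and 55% of the 20 in cKO. Of these 7 were lower and 3 higher in both, and Snhg6 was called in opposite directions. The share of all genes called in both comparisons was not counted, so this overlap is a description. With the Y-linked level as a covariate 1 member, Gm9926, was called in both. Snhg6 had a log2 fold change of -0.63 ± 0.19 in cKO DSS against cKO water (adjusted p = 0.0401) and 0.54 ± 0.19 in WT DSS against WT water (adjusted p = 0.0483). The first call was lost in 16 of 31 alternatives and the second in 21 of 31, among them the fit without WT DSS 4. The difference between those changes, -1.17 ± 0.27, had the smallest p of any member and did not pass over all genes (limma, adjusted p = 0.0701). Gm28901 was next at -1.33 ± 0.36 (adjusted p = 0.0909). The interaction called 0 members with limma, against a background of 0.151%. At an unadjusted p under 0.05 there were 21 of the 97, against 23.2% of all genes, and voom on the recovered reads also called 0. Neat1, lower after DSS in WT mice, had 14.5, 7.93, 14.03 and 16.6 FPKM in cKO DSS against 17.02, 14.4, 16.6 and 14.2 FPKM in cKO water libraries, and its difference between genotypes did not pass (0.74 ± 0.26, adjusted p = 0.134).

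Called members were set beside their nearest protein-coding gene. Of 19 members called in WT DSS against WT water with a tested neighbour within 100 kb, 6 had a neighbour called in the same direction, 0 in the opposite direction and 13 not called. That is 31.6% called, against 34.4% of all 9262 protein-coding genes that pass the level rule. In cKO DSS against cKO water the counts were 3, 0 and 12 of 15, or 20% against 16.4%. With the Y-linked level as a covariate 1 of the 6 neighbours, Mansc1, and 1 of the 3, Zcchc2, were called. In that setting 863 of all 13255 genes tested were called in WT mice and 299 in cKO mice. 9130016M20Rik starts 1089 bases past the end of A1cf, an RNA-binding partner of the APOBEC1 editing enzyme, on the same strand, and A1cf was at 13.96 ± 1.7 FPKM in WT DSS and 9.65 ± 1.704 FPKM in WT water (log2 fold change 0.50 ± 0.12, adjusted p = 0.00776). Gm38910 lies 1526 bases past Mansc1 on the same strand, and Mansc1 rose by 0.51 ± 0.11 in cKO mice and by 0.65 ± 0.11 in WT mice on the log2 scale. Gm12319 ends 97 bases before Pfn1, the gene of the actin-binding protein profilin, on the same strand, and Pfn1 fell to 143 ± 17 FPKM in WT DSS against 203 ± 24 FPKM in WT water. Whether such members are separate transcripts or extensions of the gene beside them was not tested.

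Gm7160 and Zcchc2 form a divergent pair, with starts 124 bases apart. Zcchc2 was at 17.5 ± 4.0 FPKM in cKO DSS and 9.23 ± 0.65 FPKM in cKO water libraries, and its log2 fold change of 0.83 ± 0.12 (adjusted p = 0.000608) stood beside 0.83 ± 0.19 for Gm7160, a member chosen through its level in cKO DSS. With the Y-linked level as a covariate the log2 fold changes were 0.80 for Zcchc2 (limma, adjusted p = 0.0366) and 0.30 for Gm7160 (adjusted p = 0.490). The stretch that holds both starts is shown because both genes were called there, from RefSeq (GRCm38.p6, chr1:105990233-105990532, on the minus strand of Gm7160, 5′ to 3′), with capitals for the 50 bases from the start of Gm7160 onwards.
Gm7160: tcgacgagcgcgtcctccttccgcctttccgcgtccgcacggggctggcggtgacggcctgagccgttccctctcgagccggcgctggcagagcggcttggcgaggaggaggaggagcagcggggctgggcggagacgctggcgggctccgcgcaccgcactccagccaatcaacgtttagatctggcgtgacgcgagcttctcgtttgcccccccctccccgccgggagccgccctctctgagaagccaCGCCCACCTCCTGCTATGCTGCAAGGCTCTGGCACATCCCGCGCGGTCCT
It held none of the 6 motifs searched. Of the 97 members 51 had a RefSeq promoter, and a TATA box was found in 4 of them (7.84%) and an E-box in 6 (11.8%), against 13.6% and 7.15% of all promoters.

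**Figure D5:**
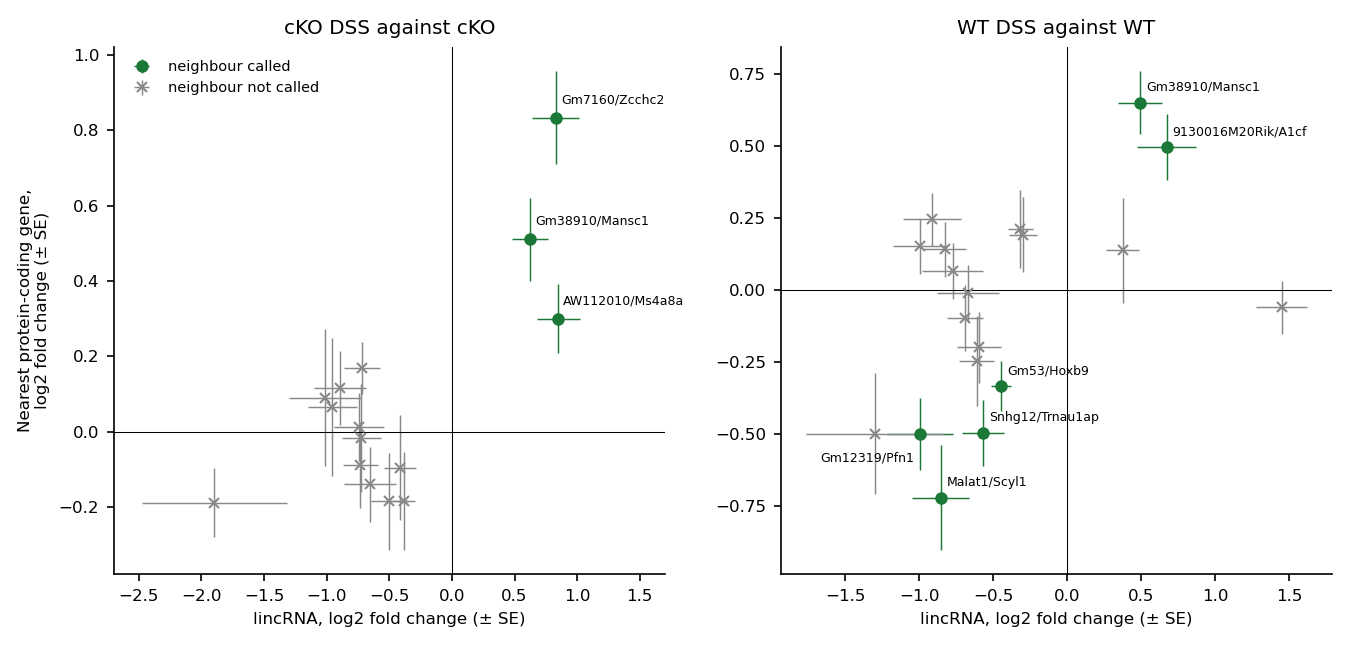
Log2 fold change (± SE) of called lincRNAs (horizontal) and of their nearest protein-coding gene within 100 kb (vertical), for cKO DSS against cKO water (left) and WT DSS against WT water (right). Green circles mark neighbours that were called as well, 3 on the left and 6 on the right, and all of these lie in the quadrants of equal direction.

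Of the members, 6 carry or adjoin microRNA genes on the same strand. After DSS, Gm53 and Gm26532 were called in WT mice, where 28.5% of all genes tested were called. Gm27028 was called in cKO mice, where 14.7% were. The mature sequences are from RefSeq (GRCm38.p6, 5′ to 3′) and are shown for these hosts with the seed, bases 2 to 8, in capitals, since the seed decides which messages a microRNA pairs with. Mature microRNAs were not measured by these libraries.
miR-23a-3p: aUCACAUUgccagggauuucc
miR-27a-3p: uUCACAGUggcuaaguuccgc
miR-24-3p: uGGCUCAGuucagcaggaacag
miR-30c-5p: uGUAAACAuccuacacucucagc
miR-196a-5p: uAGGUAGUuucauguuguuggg
miR-17-5p: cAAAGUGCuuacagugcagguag
miR-20a-5p: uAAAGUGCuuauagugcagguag
miR-19a-3p: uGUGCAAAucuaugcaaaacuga
miR-19b-3p: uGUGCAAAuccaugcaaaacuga
Gm26532 on chromosome 8 adjoins the hairpins of miR-23a, miR-27a and miR-24-2 and had 5.12, 4.54, 6.32 and 7.88 FPKM in WT DSS against 7.37, 9.59, 10.6 and 10.2 FPKM in WT water libraries, which overlap (log2 fold change -0.60 ± 0.15, adjusted p = 0.0106). In cKO mice it had 7.33, 6.86, 7.08 and 9.78 FPKM in DSS and 9.20, 10.1, 10.1 and 8.03 FPKM in water libraries and was not called. Gm27028, which contains miR-30c-2, had 0.169, 0.802, 1.11 and 0.158 FPKM in cKO DSS against 2.63, 2.63, 3.32 and 1.08 FPKM in cKO water libraries (-1.13 ± 0.30, adjusted p = 0.0211), on 9.38 reads per library on average. It reached 2 FPKM in water libraries only, so the level rule favoured this direction and the fall is a description. The seed of miR-30c-5p, GUAAACA, is its own among the mature microRNAs of these hosts. Gm53 ends within 1 kb of miR-196a-1. Mir17hg, the host of the miR-17-92 cluster that promotes proliferation, had 1.87, 2.59, 1.83 and 2.16 FPKM in cKO DSS against 1.65, 1.02, 1.19 and 2.34 FPKM in WT DSS libraries and was called in no comparison. Within its cluster miR-17-5p and miR-20a-5p share the seed AAAGUGC, and miR-19a-3p and miR-19b-3p share GUGCAAA. Snhg20, which holds miR-6516, and 2900076A07Rik, which holds miR-1839, were also called in no comparison.

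Other well-known long noncoding RNAs were read from a list of 47 names. Of these, 10 are members, and 15 others passed the filter of 1 FPKM in 4 libraries. Of these 15, 5 were lower and 1 higher in WT DSS against WT water, where 28.5% of all genes tested were called, and 6 were lower and 0 higher in cKO DSS against cKO water, where 14.7% were. Both lower counts include Xist, whose level moved with the sex markers as given above, and without it they were 4 and 5 of 14. With the Y-linked level as a covariate 863 of all 13255 genes tested were called in WT mice and 299 in cKO mice. Of the 14, 0 were called in WT mice and 1, Gas5, in cKO mice. Several small nucleolar RNA hosts were among them. Gas5 was at 8.80 ± 0.80 FPKM in cKO DSS and 15.5 ± 1.5 FPKM in cKO water (log2 fold change -0.75 ± 0.12, adjusted p = 0.000833), and at 8.62 ± 1.004 FPKM in WT DSS and 12.5 ± 2.2 FPKM in WT water (-0.48 ± 0.12, adjusted p = 0.00917). Snhg5 was lower in both DSS comparisons, Snhg17 and Dancr passed in WT mice, and Snhg1, Snhg4 and Zfas1 passed in cKO mice. The interaction called 0 of the 15, so none of these changes was shown to differ between genotypes. Tug1 was higher in WT DSS (20.9 ± 1.9 FPKM) than in WT water (14.9 ± 2.3 FPKM). In cKO DSS against WT DSS 1 of the 15 was called, Zfas1, at 5.399 ± 2.73 FPKM in cKO DSS and 11.4 ± 0.7 FPKM in WT DSS (log2 fold change -1.03 ± 0.21, adjusted p = 0.0189). Members of the same family that were called in no comparison were Snhg15 and Snhg20, while Snhg18 was lower in cKO DSS than in cKO water (-0.50 ± 0.15, adjusted p = 0.0358). Hottip at 5.73 to 10.1 FPKM, beside the posterior Hoxa genes, and Bvht at 1.05 to 4.21 FPKM, known from the cardiac lineage, were called in no comparison.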

How the data were processed

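RNA from colonic epithelial cells was sequenced in 16 libraries. The deposited values are FPKM for 56268 genes with their positions and lengths, made by the authors with featureCounts 1.5.0-p3, DESeq2 1.20.0 and mm10, per the submitters' processing notes. For the aligner, annotation release and strand setting nothing is given in the sources used here. FPKM multiplied by gene length came out whole, within 0.05, in units of 1 read, which gave 13911823 to 16414914 reads per library. Members below about 50 reads are measured with low precision.

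Values were analysed as log2(FPKM + 1), which understates the change of low genes. The 13255 genes that reached 1 FPKM in 4 or more libraries were tested. A model with group means over all 16 libraries was fitted with limma 3.58.1 in R 4.3.3 (eBayes with a trend), with the two-sided moderated test and Benjamini-Hochberg adjustment within each of 5 comparisons. Genes with an adjusted p under 0.05 were called. The fit was checked on simulated reads. The members and lists were chosen with earlier results of these data known.

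Named genes were the 8 members of highest mean, up to 8 called members of smallest p per comparison (2 of smallest p where none was called), 3 genes on each side of the level threshold, members with a given symbol, their neighbours, Rictor and other long noncoding RNAs. Others named (the remaining called members, Gm44955, Gm45042 and microRNA hosts) were chosen after their values were seen. Alternatives were another pseudocount, other filters, quantile and median scaling, sample weights, a replicate block, GC and length corrections, the Y-linked level, 8-library fits, voom and leaving out libraries. Promoter and microRNA sequences are from RefSeq.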

Additional observations from a re-analysis of the deposited data

Results flagged for a closer look

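In 30 named members with 4 groups each, 120 groups in all, 10 held a library far from the other 3 of its group by Dixon's test, where chance gives about 6 (1 in 20). In WT water, library 4 was the highest for 4732465J04Rik at 3.326 FPKM (others 1.54 to 1.702 FPKM), Gm12319 at 4.314 FPKM (others 2.81 to 3.00 FPKM) and Gm53 at 34.12 FPKM (others 29.8 to 30.4 FPKM). In the same group, WT 2 was the lowest for Gm28875 at 2.956 FPKM (others 3.77 to 3.94 FPKM) and WT 1 the lowest for Gm28901 at 1.835 FPKM (others 4.09 to 4.33 FPKM). In WT DSS, Gm29051 was at 0.3906 FPKM in library 1 and 0 in the others, Gm53 at 21.76 FPKM in library 2 (others 22.8 to 22.9 FPKM) and Gm7160 at 1.758 FPKM in library 3 (others 1.92 to 1.94 FPKM). Hottip reached 8.963 FPKM in WT DSS 3 (others 6.58 to 6.99 FPKM) and Snhg6 12.79 FPKM in WT DSS 4 (others 6.73 to 7.65 FPKM).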

How the results depend on the processing

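Counts of called members are given below in the order cKO against WT, cKO DSS against WT DSS, DSS in WT, DSS in cKO and interaction, where the values reported are 2, 5, 25, 20 and 0. Over all 13255 genes tested the counts reported are 12, 491, 3778, 1950 and 20. Sample quality weights gave 5, 21, 38, 27 and 21, where 267, 3485, 5189, 3060 and 3728 of all genes tested were called. No filter gave 1, 3, 16, 11 and 0, and a filter at 5 FPKM, which left 34 members, gave 0, 2, 15, 11 and 0. Over all genes these called 2, 209, 2708, 1461 and 4 of 30420, and 10, 380, 3051, 1394 and 46 of 7723. Fits on the 8 libraries compared gave 1 for cKO against WT, 3 for cKO DSS against WT DSS and 12 for DSS in cKO, and no such fit exists for the interaction. Over all genes these fits called 6, 96 and 1391. The Y-linked covariate gave 2, 6, 8, 1 and 0. Without cKO DSS 3 and 4 the counts were 1, 2, 26, 12 and 0, and without WT 4 and WT DSS 2 they were 1, 3, 14, 16 and 0. Over all genes they were 16, 33, 4228, 1792 and 0, and 8, 117, 1452, 1958 and 0. The replicate block gave 1, 4, 26, 19 and 0, and with a GC correction 1 in the first comparison. Over all genes the block gave 2, 429, 3857, 1898 and 13, and with the GC correction 2 in the first comparison. A pseudocount of 0.1, the GC correction, the length correction and voom each gave 1 in the first comparison, because Gm29051 was lost. Over all genes they called 9, 8, 6 and 29 there. Leaving out single libraries gave 1 to 3, 2 to 7, 16 to 28, 11 to 20 and 0 to 10, the last without cKO DSS 2. Over all genes these fits called 2 to 111, 78 to 886, 2240 to 4258, 1305 to 2153 and 0 to 1240, the last also without cKO DSS 2. For the interaction 3 members were called without cKO DSS 1, where 393 of all genes tested were called. Of 1648 values for named or called members under an alternative, 1335 kept their side of the threshold, 308 lost it, 5 gained it and 0 changed sign. The causes were not tested. Equal replicate numbers gave no clear sign of pairing. Correlations were -0.199 to 0.300 (median 0.02, 24 pairs), against -0.251 to 0.276 for unlike numbers (median -0.02, 72 pairs). Such values cannot show that libraries are unpaired. Voom used median-of-ratios size factors, chosen after seeing the data in place of TMM. The planned quasi-likelihood and negative binomial count tests were not run, since the deposited unit is FPKM. Depth limits the low members, of which 39 rest on fewer than 50 reads per library.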
